A study of Homo sapiens with 6 samples.

Results

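The 10 genes described here set the pace of the G1 phase of the cell cycle: the D cyclins *CCND1*, *CCND2* and *CCND3*, the E cyclins *CCNE1* and *CCNE2*, the kinases *CDK4* and *CDK6* that the D cyclins activate, and the kinase inhibitors *CDKN1B* (p27), *CDKN1C* (p57) and *CDKN2C* (p18). They were chosen by name, out of 67060 genes counted, and 8 of the 10 had enough reads to be tested. SH-SY5Y, a human neuroblastoma cell line that the labels call a neuronal progenitor, received 0.5 ul of 1 of 2 adenoviruses and was collected at 24 h. In 3 libraries (Ad CMV 3xFlag-*Esrrg*, replicates 2, 3 and 4) the virus carried mouse *Esrrg*, the gene of the orphan nuclear receptor ERRγ, with a 3xFlag tag. In the other 3 (Ad CMV GFP, replicates 1, 3 and 4) it carried GFP. Both inserts were driven by the CMV promoter, which is active in most cell types, and no uninfected cells were sequenced. All cells came from the same tumor-derived line. The labels do not say whether the libraries came from separate cultures, so that the p-values measure only the spread between these libraries.

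A D cyclin bound to CDK4 or CDK6 phosphorylates the retinoblastoma protein RB, which releases E2F factors to switch on the genes of DNA replication. Cyclin E bound to CDK2 then completes the phosphorylation and carries the cell into S phase. CDKN2C, of the INK4 family, binds CDK4 and CDK6 and keeps them from their cyclins, while CDKN1B and CDKN1C, of the CIP/KIP family, bind assembled complexes and block CDK2. Neuroblastomas often carry high cyclin D1 or CDK4 and remain cycling, whereas neurons leave the cycle as they differentiate.

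RNA was made into directional libraries after ribosomal RNA was removed, and the values are counts of reads per gene. Between 24969759 and 40859666 reads per library fell on genes. Levels are given as counts per 1000000 (CPM) scaled by the TMM factors of edgeR, on which 3 counts amount to 0.0880 to 0.112 CPM. Reads outside genes made up 51.3% to 52.2% of the reads with Ad CMV GFP and 46.6%, 31.6% and 29.5% with Ad CMV 3xFlag-*Esrrg* replicates 2, 3 and 4, so that replicate 2 lay nearest to the controls. *ESRRG* was at 87.0 ± 3.40 CPM (SD, n = 3) with Ad CMV GFP and 706 ± 119 with Ad CMV 3xFlag-*Esrrg*, a value that also counts any reads of the mouse insert that align to the human gene. Of 9 adrenergic neuroblastoma markers, *TH* had 0 counts in every library, and the sum was 702 to 765 CPM in the controls and 523 to 692 with Ad CMV 3xFlag-*Esrrg*. The summed level of 5 mesenchymal-type markers was 2847 to 2877 and 3585 to 3640 CPM, of which *FN1* made up 1956 ± 27.4 and 2691 ± 71.7 CPM while *YAP1* fell and the other 4 genes, *FN1* among them, were not called. That of 4 fibroblast markers, which mesenchymal-type neuroblastoma cells can also express, was 703 to 747 and 477 to 547 CPM, and that of 4 Schwann cell markers was 6.16 to 6.95 and 4.28 to 5.24 CPM. The part of these shifts in the results on the cell cycle genes was not tested.

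With Ad CMV 3xFlag-*Esrrg*, *CCND3* and *CDK4* rose and *CCND1*, *CCNE2* and *CDK6* fell. *CCNE1*, *CDKN1B* and *CDKN2C* did not pass the test, and *CCND2* and *CDKN1C* had too few reads for one. The call asked for 1.5-fold or more in size and, in edgeR's quasi-likelihood test, an adjusted p (Benjamini-Hochberg) under 0.05. By that rule 2 of the 8 tested genes were higher, against 17.3% of all 24500 genes tested, and 3 were lower, against 16.8%. The groups did not overlap in 5 of the 8, a share near the 58.1% found over all tested genes. The median log2 fold change was 0.14 for the 8 genes and -0.10 for all tested genes. The direction of the first turned in 4 refits, and with reads outside genes as a covariate the medians were -0.28 and 0.016. That covariate was lower in every Ad CMV 3xFlag-*Esrrg* library than in every control. Here and below, its part and that of the virus cannot be told apart in that fit. In RNA from whole cultures, fewer cells expressing a gene and less RNA per cell cannot be told apart.

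**Figure D1:**
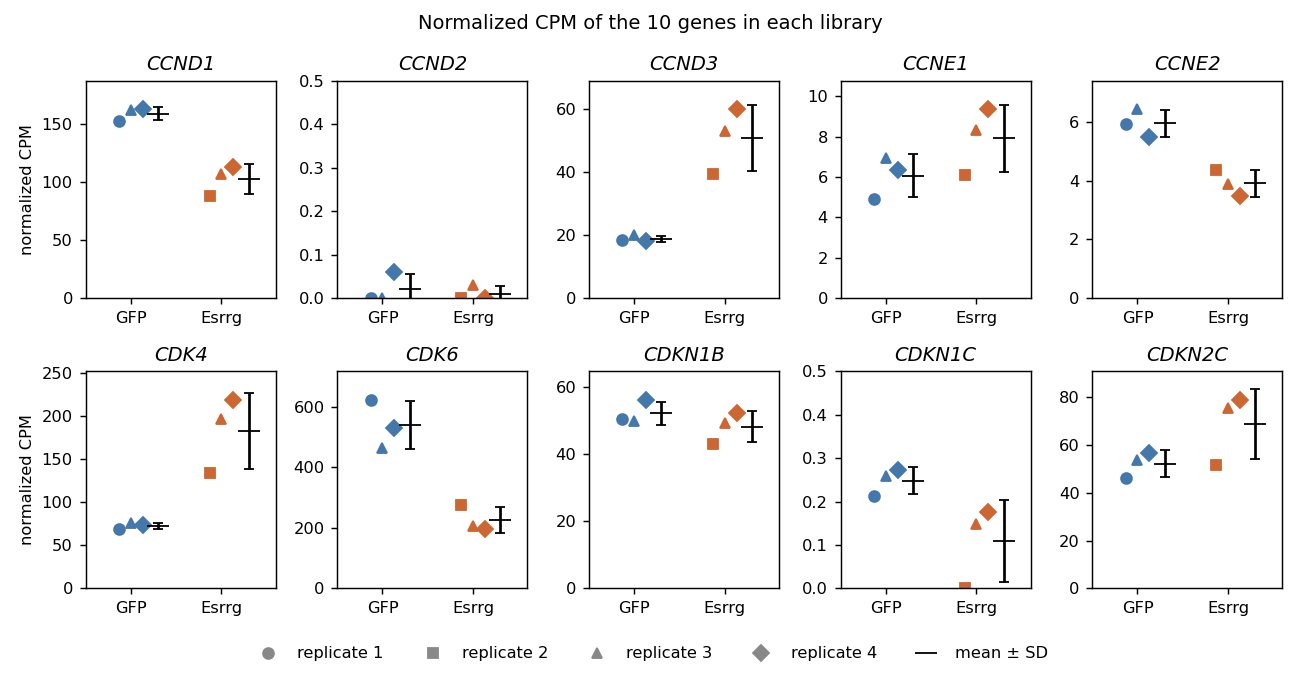
Normalized CPM (vertical axes, linear, from 0) of each of the 10 genes in the 3 Ad CMV GFP libraries (GFP, blue) and the 3 Ad CMV 3xFlag-*Esrrg* libraries (Esrrg, orange); marker shapes give the replicate, and black bars the mean ± SD. The groups are apart for the 5 called genes, *CCND1*, *CCND3*, *CCNE2*, *CDK4* and *CDK6*, and *CCND2* lies at or near 0 in all 6 libraries.

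Of the D cyclins, *CCND1* had the highest level per kilobase of exon, followed by *CCND3*. *CCND1* (ENSG00000110092) lies on chromosome 11 at 69641156 to 69654474 on the plus strand of GRCh38. Its level was 152, 162 and 163 CPM in Ad CMV GFP replicates 1, 3 and 4. Infection with Ad CMV 3xFlag-*Esrrg* gave 87.8, 107 and 113 CPM in replicates 2, 3 and 4. All 3 of the latter libraries lay below the controls, with replicate 2 the lowest. *CCND1* thus fell by 0.63 on the log2 scale (SE 0.11, 95% interval -0.88 to -0.39), a 1.55-fold lower mean, with an adjusted p of 0.000966 in edgeR's quasi-likelihood test. Its size lay close to the limit of 1.5-fold, and it passed below that limit without Ad CMV 3xFlag-*Esrrg* replicate 2 (log2 fold change -0.43), with edgeR's RLE size factors (-0.55) and in DESeq2 (-0.54). A covariate for reads outside genes made it -0.97.

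*CCND3* (ENSG00000112576, chromosome 6, 41934934 to 42050357, minus strand) encodes a D cyclin best known from lymphoid and differentiating cells. It was counted at 18.4, 19.9 and 18.0 CPM in the control libraries. With Ad CMV 3xFlag-*Esrrg* it reached 39.5, 52.9 and 59.9 CPM, above every control. The rise was 2.7-fold (log2 fold change 1.44, SE 0.14, 95% interval 1.12 to 1.75), with an adjusted p of 5.57e-05 by edgeR's quasi-likelihood test. It was called in all 15 refits with other settings, in which the log2 fold change ran from 0.89, with reads outside genes as a covariate, to 1.69, without Ad CMV 3xFlag-*Esrrg* replicate 2. *CCND2* (ENSG00000118971, chromosome 12, 4269771 to 4305353, plus strand), the D cyclin of many neural precursors, had 0, 0 and 2 counts in the controls and 0, 1 and 0 with Ad CMV 3xFlag-*Esrrg*. All 6 libraries lay within the 3 counts that a count of 0 allows, and no fold change is given.

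Since *CCND3* rose while *CCND1* fell, the sum and the makeup of the D cyclins were computed as well. Levels per kilobase of exon were added over the 3 genes for each library. The sum was 35.2, 37.5 and 37.3 CPM per kilobase in the controls and 25.3, 31.6 and 34.1 with Ad CMV 3xFlag-*Esrrg*, with means of 36.6 ± 1.29 and 30.3 ± 4.54 (SD, n = 3). *CCND1* made up 90.9%, 90.8% and 91.6% of that sum in the controls. It made up 72.9%, 70.9% and 69.5% with Ad CMV 3xFlag-*Esrrg*, and the remainder was almost all *CCND3*. For both quantities the groups did not overlap, and the exact permutation test, two-sided, gave p = 0.1, the smallest value that 3 libraries against 3 allow. The sum depended on scaling: its groups overlapped with RLE size factors (difference -4.40, exact permutation p = 0.2) and with the size factors of DESeq2 (-4.03, exact permutation p = 0.3), against -6.32 as reported, -14.0 with library size alone and -3.80 without Ad CMV 3xFlag-*Esrrg* replicate 2. The share does not depend on the scaling of a library.

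The kinases of the D cyclins changed in opposite directions. *CDK4* (ENSG00000135446, chromosome 12, 57747727 to 57756013, minus strand) was at 68.8, 76.0 and 73.0 CPM in the controls. With Ad CMV 3xFlag-*Esrrg* it was at 133, 196 and 219 CPM. Every one of these libraries lay above the controls, and replicate 2 was the lowest of them. The mean rose from 72.6 ± 3.63 to 183 ± 44 CPM (SD, n = 3), a 2.51-fold change (log2 fold change 1.33, SE 0.16, 95% interval 0.98 to 1.68, adjusted p = 0.000132 by edgeR's quasi-likelihood test). Of its exon bases, 44.2% are shared with *TSPAN31*, a tetraspanin gene on the opposite strand, and the strand setting of the counting is not given in the sources used here, so that reads of the 2 genes may not have been told apart. *TSPAN31* itself was at 27.6 ± 2.14 and 38.0 ± 5.86 CPM (log2 fold change 0.46, adjusted p = 0.0113 in edgeR, below 1.5-fold).

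*CDK6* (ENSG00000105810, chromosome 7, 92604921 to 92836573, minus strand) moved the other way. Its level was 623, 464 and 530 CPM in Ad CMV GFP replicates 1, 3 and 4. With Ad CMV 3xFlag-*Esrrg* it was 276, 205 and 197 CPM, and the highest of these stayed well below the lowest control. It fell by 1.25 on the log2 scale (SE 0.16, 95% interval -1.60 to -0.91), a 2.38-fold lower mean, with an adjusted p of 0.000155 in edgeR's quasi-likelihood test. Both kinases were called in all 15 refits. The smallest changes came when reads outside genes, a share that itself separates the groups, entered as a covariate, at 0.66 for *CDK4* and -0.80 for *CDK6*. Only 0.7% of the exon bases of *CDK6* are shared with another gene.

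The sequences upstream of both kinases are shown because these partners of the same cyclins changed in opposite directions. Each line gives the 250 bases before a RefSeq transcription start, 5′ to 3′ on the strand of the gene, with each CACGTG (E-box, a site that MYC and related factors can bind) in capitals. The windows are chr12:57752311-57752560 for *CDK4* and chr7:92836574-92836823 for *CDK6*, on the minus strand of GRCh38.p14.
CDK4: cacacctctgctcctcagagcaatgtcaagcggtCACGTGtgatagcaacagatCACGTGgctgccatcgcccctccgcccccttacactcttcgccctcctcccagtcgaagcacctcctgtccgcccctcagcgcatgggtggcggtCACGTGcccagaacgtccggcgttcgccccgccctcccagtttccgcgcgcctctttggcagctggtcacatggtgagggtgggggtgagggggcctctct
CDK6: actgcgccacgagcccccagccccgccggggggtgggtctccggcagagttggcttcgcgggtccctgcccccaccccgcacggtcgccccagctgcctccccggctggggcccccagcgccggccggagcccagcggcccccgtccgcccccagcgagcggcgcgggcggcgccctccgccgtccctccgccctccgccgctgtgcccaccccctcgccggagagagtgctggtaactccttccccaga

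The *CDK4* window held 3 E-boxes, starting at -216, -196 and -101 from the start site, and its bases were 65.6% G or C. The *CDK6* window held none, and its bases were 80.0% G or C. A match lay at 31 bases after that start, outside the bases shown. RefSeq windows from 250 bases before to 50 after a start were matched for 6 of the 10 genes (11 windows), leaving *CCND1*, *CCND2*, *CCNE2* and *CDKN1C* unmatched. An E-box was present in 4 of these 11 longer windows, that of *CDK4*, that of the *CDK6* start above (in the 50 bases not shown) and a pair of *CDKN2C*. The window of another RefSeq start of *CDK6* held no E-box. Of all 35116 windows, 7.26% held an E-box and 0.094% held 3 or more. The motifs were picked with these results known. Neither the ERR core site AAGGTCA, which estrogen-related receptors recognize, nor the longer TCAAGGTCA that contains it was found in the 11 windows on either strand, and they occurred in 3.92% and 0.353% of all windows. The E2F motifs TTTGGCGC and TTTCCCGC, at 0.652% and 1.63% of all windows, were not found either, and these letters may lie outside the windows.

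The kinases stood on opposite sides of a ratio of 1 in the groups. Per kilobase of exon, the ratio of *CDK4* to *CDK6* was 0.437, 0.648 and 0.545 in the controls. It was 1.91, 3.77 and 4.39 with Ad CMV 3xFlag-*Esrrg*. On this scale *CDK6* was thus the higher kinase in each control and *CDK4* in each of the others. The length of *CDK4* includes the 44.2% shared with *TSPAN31*, where reads may have gone uncounted. A ratio on unshared bases was not computed, so the order of the 2 kinases within a control is not settled. The mean ratios were 0.543 ± 0.105 and 3.36 ± 1.29 (SD, n = 3), 6.18 times apart, with p = 0.1 by the exact permutation test, two-sided, the smallest possible. Without division by exon length, where the much longer *CDK6* transcript collects more reads, the ratio was 0.111, 0.164 and 0.138 in the controls and 0.483, 0.954 and 1.11 with Ad CMV 3xFlag-*Esrrg*, so the crossing above 1 was seen in replicate 4 only while the factor between the groups was the same. The scale without length was chosen after seeing the data.

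**Figure D2:**
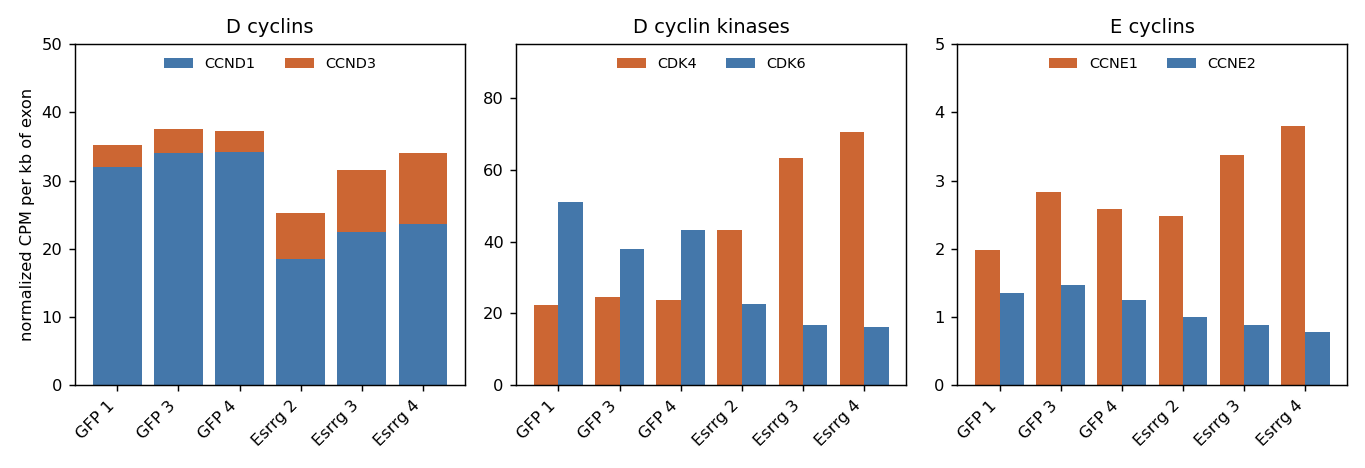
CPM per kilobase of exon in each library (horizontal axis) for the D cyclins, stacked, and side by side for the kinases and for the E cyclins; bars are single libraries and *CCND2* is left out. The mean share of *CCND1* in the D cyclins is 91.1% and 71.1%. On full exon length, which for *CDK4* includes bases shared with *TSPAN31*, *CDK6* is the higher kinase in all Ad CMV GFP libraries and *CDK4* in all Ad CMV 3xFlag-*Esrrg* libraries.

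Per kilobase of exon, both E cyclins lay below *CCND1* and *CCND3* and above *CCND2* in every library. *CCNE1* (ENSG00000105173, chromosome 19, 29811991 to 29824312, plus strand) was at 4.89, 6.95 and 6.34 CPM in the controls and 6.10, 8.32 and 9.36 CPM with Ad CMV 3xFlag-*Esrrg*. The groups overlapped, and the log2 fold change of 0.39 (SE 0.19, 95% interval -0.03 to 0.80) had an adjusted p of 0.11 in edgeR's quasi-likelihood test. The interval leaves room for no change and for a rise beyond 1.5-fold. Without Ad CMV 3xFlag-*Esrrg* replicate 2 it was 0.65 and called, and with reads outside genes as a covariate it was -0.20.

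*CCNE2* (ENSG00000175305, chromosome 8, 94879770 to 94896678, minus strand) was at 5.92, 6.43 and 5.50 CPM in the controls. With Ad CMV 3xFlag-*Esrrg* it was at 4.38, 3.89 and 3.46 CPM, below every control. It fell by 0.61 on the log2 scale (SE 0.15, 95% interval -0.95 to -0.27), a 1.53-fold lower mean with an adjusted p of 0.00818 in edgeR's quasi-likelihood test. The call was the least stable of the 5. It was lost in 7 of 15 refits, always with the same direction, and the log2 fold change was -0.35 with reads outside genes as a covariate and -0.43 with a correction for GC content and length. *INTS8*, a subunit gene of the Integrator complex on the opposite strand, overlaps 37.0% of the exon bases of *CCNE2* and had a log2 fold change of -0.06 (adjusted p = 0.609 in edgeR).

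**Figure D3:**
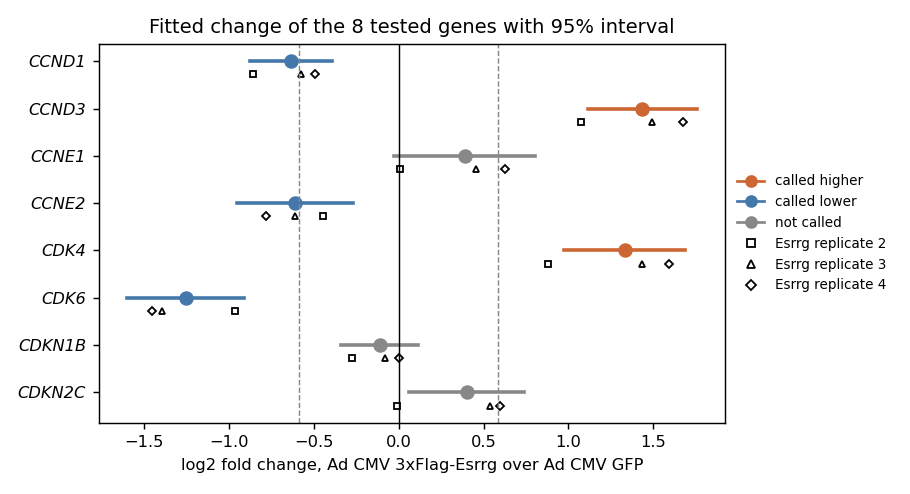
Log2 fold change of the 8 tested genes, Ad CMV 3xFlag-*Esrrg* over Ad CMV GFP (horizontal axis), with 95% intervals from edgeR as bars and the 1.5-fold limits as dashed lines; open symbols give the log2 ratio of each Ad CMV 3xFlag-*Esrrg* library to the control mean. *CCND3* and *CDK4* lie above the upper limit at 1.44 and 1.33, *CDK6* at -1.25 and *CCND1* and *CCNE2* just past the lower one.

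None of the 3 inhibitors was called changed, 2 of which were tested. *CDKN1B* (ENSG00000111276, chromosome 12, 12685498 to 12722369, plus strand), the p27 gene, is known to be controlled largely through protein turnover. It was at 50.4, 49.7 and 56.1 CPM in the controls and 43.0, 49.2 and 52.2 CPM with Ad CMV 3xFlag-*Esrrg*. The libraries overlapped, and the log2 fold change was -0.11 (SE 0.10, 95% interval -0.34 to 0.12, adjusted p = 0.392 in edgeR's quasi-likelihood test). Its interval ends inside the 1.5-fold limit in both directions. With library size alone the log2 fold change was -0.44 (adjusted p = 0.00236 in edgeR). With reads outside genes as a covariate it was -0.36 (adjusted p = 0.0238 in edgeR), and both lay below 1.5-fold.

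*CDKN2C* (ENSG00000123080, chromosome 1, 50960745 to 50974634, plus strand), the p18 gene, missed the call by size and by adjusted p. Its level was 45.9, 53.7 and 56.7 CPM in the controls and 51.8, 75.6 and 78.9 CPM with Ad CMV 3xFlag-*Esrrg*. Replicates 3 and 4 lay above all controls while replicate 2 lay among them. The log2 fold change was 0.40 (SE 0.15, 95% interval 0.06 to 0.74) with an adjusted p of 0.0518 in edgeR, a 1.32-fold difference. It became 0.67, and called, without replicate 2 of Ad CMV 3xFlag-*Esrrg*, and -0.06 with a correction for GC content and length.

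*CDKN1C* (ENSG00000129757, chromosome 11, 2883213 to 2885775, minus strand), the imprinted p57 gene, was close to the limit of detection. It had 6, 8 and 9 counts in the controls and 0, 5 and 6 counts with Ad CMV 3xFlag-*Esrrg*, which allows up to 0.112 CPM where the count was 0. It did not pass the filter on low counts. Fitted without that filter, its log2 fold change was -1.09 with an adjusted p of 0.256 in edgeR, and -1.04 with 0.414 in DESeq2. Per kilobase, its level relative to *CDKN1B* was 0.0158, 0.0194 and 0.0181 in the controls and 0, 0.0113 and 0.0126 with Ad CMV 3xFlag-*Esrrg*, so that p27 transcripts outnumbered p57 transcripts in all 6 libraries. The ratios gave p = 0.1 by the exact permutation test, two-sided, again the smallest possible.

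Ranked per kilobase of exon, the 10 genes changed places mainly at the top. In the controls the median level was 43.3 CPM per kilobase for *CDK6*, 34.0 for *CCND1*, 23.6 for *CDK4* and 17.8 for *CDKN2C*. Below these came *CDKN1B* at 5.44, *CCND3* at 3.20, *CCNE1* at 2.58, *CCNE2* at 1.35, *CDKN1C* at 0.104 and *CCND2* at 0 CPM per kilobase. No neighbours in that order overlapped between libraries. With Ad CMV 3xFlag-*Esrrg* the order began with *CDK4* at 63.3 CPM per kilobase, followed by *CDKN2C* at 25.0, *CCND1* at 22.4 and *CDK6* at 16.8. Of these, *CDKN2C* and *CCND1*, and *CCND1* and *CDK6*, overlapped between libraries and cannot be ordered. *CCND3* came next at 9.18, above *CDKN1B* at 5.32, *CCNE1* at 3.38, *CCNE2* at 0.885, *CDKN1C* at 0.0599 and *CCND2* at 0 CPM per kilobase, of which the last pair overlapped between libraries. *CDK6* thus went from the first to the fourth place by median level, and *CCND3* passed *CDKN1B*. These orders hold on full exon length, which includes bases shared with other genes, 44.2% of them for *CDK4*.

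The libraries with Ad CMV 3xFlag-*Esrrg* were not alike. Replicate 2 was the nearest of the 3 to the control mean for 6 of the 8 tested genes, and replicate 4 for the other two, *CCND1* and *CDKN1B*. Replicate 4 was the farthest for the same 6 genes. Replicate 2 also had the lowest *ESRRG*, at 570 CPM against 772 and 778 CPM in the others, and the share of reads outside genes nearest to the controls. The part of depth, of these shares and of *ESRRG* level in the difference between replicates was not tested. Without replicate 2, 4 of the tested genes were called higher in place of 2, namely *CCND3*, *CDK4*, *CCNE1* and *CDKN2C*. Over all genes the higher calls rose too, from 4234 of 24500 tested to 5820 of 25369.

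**Figure D4:**
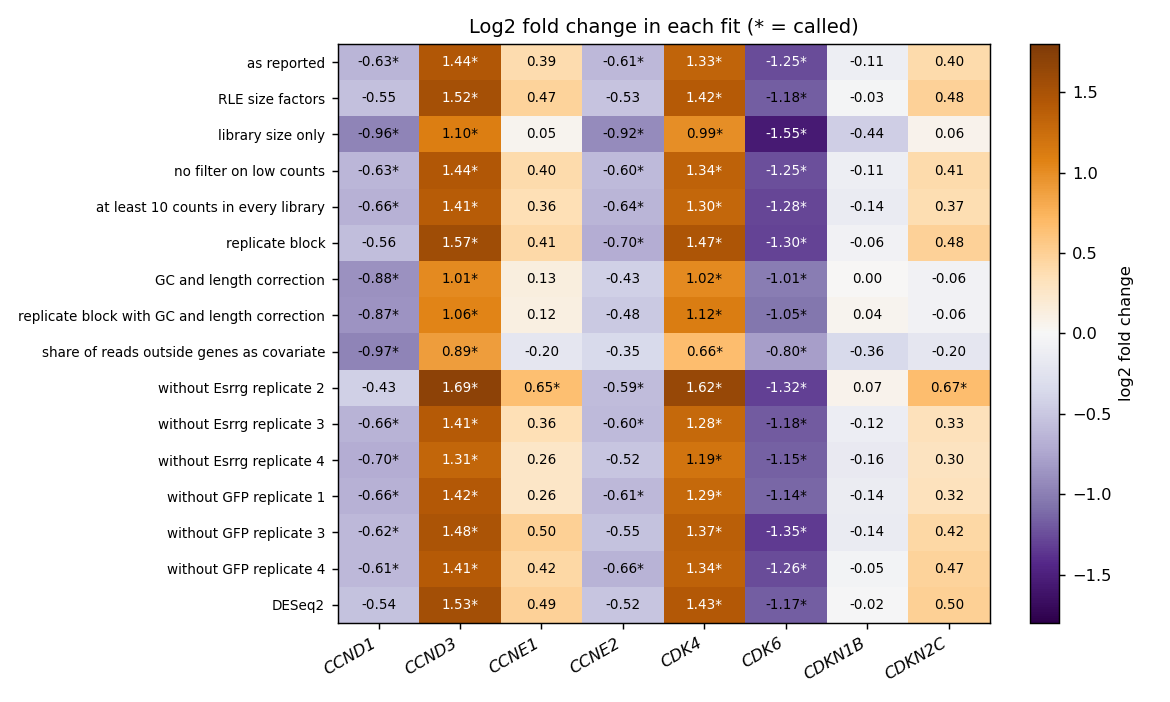
Log2 fold change of the 8 tested genes (columns) in the fit as reported and in the 15 refits with other settings (rows), coloured orange where higher and purple where lower with Ad CMV 3xFlag-*Esrrg*; an asterisk marks a call. *CCND3*, *CDK4* and *CDK6* are called in every row, *CCND1* is lost in 4 refits and *CCNE2* in 7.

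The genes around these members were counted in 4 lists of 61 genes in all, of which 60 were tested, 17 were called higher and 4 lower. Over all 24500 tested genes, 17.3% were called higher and 16.8% lower, the shares against which the counts of the fit as reported are to be read. Other fits had other totals. Library size alone called 2200 of 24500 genes higher and 7566 lower. The covariate for reads outside genes called 1773 and 1323 of 24500, and DESeq2 4885 and 2873 of 42125. Among the other G1 kinases, cyclin A genes and inhibitors, 4 of 11 rose, 0 fell and 7 were not called. The direction depended on scaling: with library size alone, 4 genes were higher and 4 lower at an unadjusted p below 0.05 in edgeR. As reported, these numbers were 5 and 0, and shares of all tested genes at that limit are not given here. *CDKN1A*, the p21 inhibitor that p53 and differentiation signals induce, rose 4.31-fold, from 260 ± 24.4 to 1118 ± 267 CPM (SD, n = 3, adjusted p = 2.12e-05 in edgeR). *CDKN2A*, which encodes p16 and ARF, rose 2.66-fold from a low level of 2.95 ± 0.153 to 7.82 ± 2.01 CPM (adjusted p = 0.000312 in edgeR). *CDC25A*, a phosphatase that activates CDK2, rose 1.91-fold, from 17.3 ± 1.27 to 33.0 ± 5.08 CPM. *CDK2*, the partner of the E cyclins, had a log2 fold change of 0.37 and was not called. The median of the list was 0.16, against -0.10 for all genes.

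In the list of pocket proteins, E2F factors and DREAM subunits, the targets of the G1 kinases, 3 of 18 tested genes rose, 2 fell and 13 were not called, with a median log2 fold change of 0.06. *E2F4* and *E2F5*, the E2F factors that mostly repress with pocket proteins, rose 1.93-fold and 1.74-fold, and *TFDP1*, the dimer partner of E2F factors, rose 1.59-fold. Of 15 refits, the call was lost in 3 for *E2F4*, 1 for *E2F5* and 2 for *TFDP1*. *RB1* fell 1.53-fold, from 88.2 ± 2.33 to 57.6 ± 1.29 CPM (SD, n = 3, adjusted p = 0.000277 in edgeR), and *E2F8*, an atypical E2F repressor, fell 2.16-fold. *RB1* lay close to the 1.5-fold limit and was not called with RLE size factors (-0.54), in DESeq2 (-0.52), with a correction for GC content and length (-0.41) or without Ad CMV 3xFlag-*Esrrg* replicate 2 (-0.50). With no limit on fold size, 7 genes of this list were higher and 5 lower, so the limit decides much of the count. The share of all tested genes without that limit is not given here. Scaling by library size alone turned the balance of the list to 1 higher and 5 lower.

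Of 13 subunits of the ubiquitin ligases that turn over D and E cyclins and p27, 4 rose and 9 were not called, with a median of 0.32. These calls depended on the fit, with 1 higher and 1 lower under library size alone and 0 higher in edgeR when reads outside genes entered as a covariate (3 at an unadjusted p below 0.05, and 4 called in DESeq2). *DDB1*, an adaptor of the CUL4 ligases, rose 2.10-fold, from 305 ± 23 to 641 ± 127 CPM. *RBX1*, the RING subunit of cullin ligases, rose 1.76-fold and *CKS1B*, which helps SKP2 to recognize p27, rose 1.74-fold. Among 18 genes that E2F factors switch on for S phase or that mark cycling cells, 6 rose and 2 fell, with a median of 0.39. *MCM7* and *MCM2*, subunits of the replicative helicase, rose 1.72-fold and 1.68-fold, and *CDT1*, which loads that helicase, rose 1.70-fold. The proliferation marker *MKI67* fell 1.90-fold, from 249 ± 14.9 to 131 ± 4.12 CPM (SD, n = 3, adjusted p = 5.95e-05 in edgeR). *TOP2A*, the topoisomerase of dividing cells, fell 1.71-fold, from 156 ± 10.4 to 91.5 ± 6.77 CPM. The called genes of this list thus went both ways. The higher calls depended on the fit: scaled by library size alone, 0 of the 18 were called higher, and 0 again when reads outside genes entered as a covariate, both in edgeR (5 and 3 at an unadjusted p below 0.05, against 7 called in DESeq2).

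**Figure D5:**
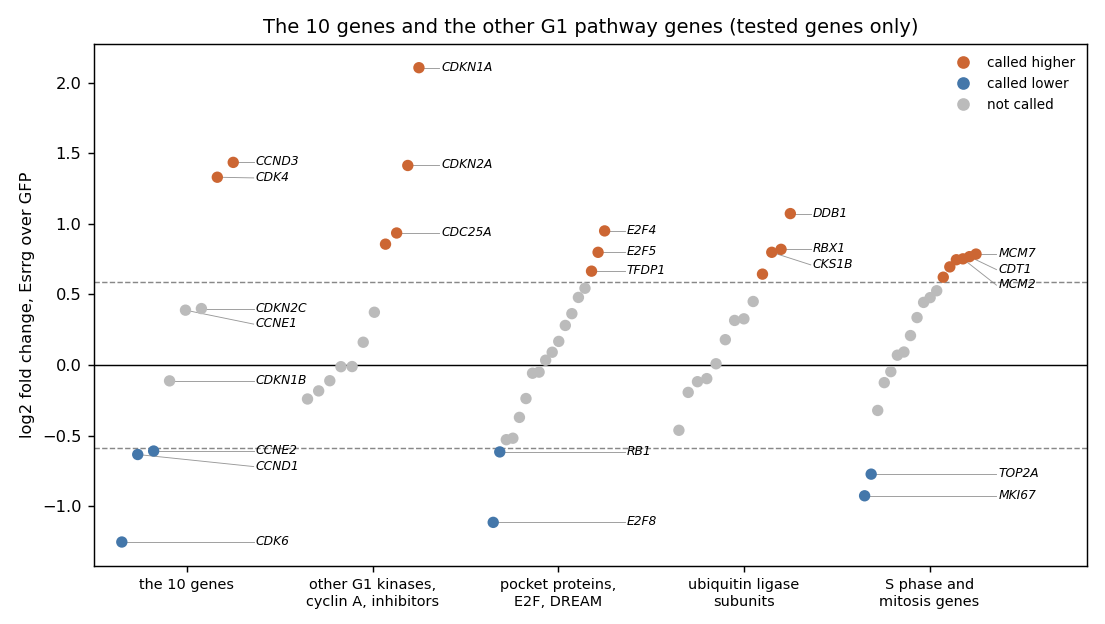
Log2 fold change (vertical axis) of the tested genes among the 10 and in the 4 lists around them, Ad CMV 3xFlag-*Esrrg* over Ad CMV GFP, with 1 point per gene, orange where called higher, blue where called lower and grey where not called, and dashed lines at the 1.5-fold limits. Most points lie within the limits, and *CDKN1A* is the highest point at 2.11.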

How the data were processed

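The deposited table holds raw counts per gene for the 6 libraries, which the authors made from total RNA depleted of ribosomal RNA. The submitters' processing notes name CASAVA, Trim Galore 0.6.7, STAR 2.7.9a, HTSeq 0.11.3, DESeq2 and GRCh38, while the annotation release and the strand setting are not given in the sources used here. Summary entries that name no gene held 52.3% to 64.0% of reads and stayed out of library sizes and tests. Identifiers were matched to GENCODE 44 (90.1% of 67060), which gave symbols, positions and exon lengths.

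Groups came from the sample titles. Counts were fitted with edgeR 4.0.16 in R 4.3.3 (filterByExpr, TMM, quasi-likelihood test, Benjamini-Hochberg adjustment over 24500 genes). Each SE was the size of the log2 fold change divided by the root of its F statistic, and 95% intervals use the t quantile. CPM used TMM-scaled library sizes. Sums and ratios were compared by exact permutation. DESeq2 1.42.0 and the refits in the closing section served as alternatives, with GC and length curves from mgcv 1.9.3. The fits were tested on simulated data.

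The 10 genes and all lists were chosen with earlier results of these data known. Beyond them, *ESRRG*, markers and genes overlapping a member's exons were named, and up to 3 called genes per list and direction with the largest change and a mean of at least 50 counts. *CDK2* was named after its value was seen. The limit for a count of 0 covers counting error only. Tables and plots were made in Python 3.11.15 (matplotlib 3.10.9, scipy 1.17.1, numpy 2.4.6, pandas 2.3.3). Some genes of the marker lists are not reported here by name.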

Additional observations from a re-analysis of the deposited data

Results flagged for a closer look

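Reads that were not counted on any single gene are outside the measurement used above, and 2 classes of them were higher with Ad CMV 3xFlag-*Esrrg* than in every control. Reads that overlapped more than 1 gene (ambiguous) took 5.69% of reads in replicate 2, 9.84% in replicate 3 and 9.79% in replicate 4, against 4.55% to 4.87% with Ad CMV GFP. Reads aligned to several places made up 9.33%, 12.7% and 13.0% in the same libraries, against 7.16% to 7.41%. In both classes replicate 2 was the nearest to the controls. *CDK4*, *CCNE2*, *CDKN2C* and *CCND1* share between 10.4% and 44.2% of their exon bases with a gene on the opposite strand, so ambiguous reads can bear on their counts. Whether they did was not tested.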

How the results depend on the processing

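*CCND3*, *CDK4* and *CDK6* were called in the same direction in all 15 refits. *CCND1* was not called with the replicate block (-0.56), with RLE size factors (-0.55), without Ad CMV 3xFlag-*Esrrg* replicate 2 (-0.43) or in DESeq2 (-0.54), and *CCNE2* in 7 refits, so that 1 of the members was called lower with RLE size factors and 1 in DESeq2. Leaving out each library gave 2 to 4 members called higher. The median of the members, 0.14 as reported, was -0.19 with library size only, -0.029 with GC and length correction, -0.0085 with the replicate block and that correction together and -0.28 when reads outside genes entered as a covariate. *CDKN1B* reversed to 0.0026, 0.044 and 0.070 under the GC and length correction, under block and correction, and without Ad CMV 3xFlag-*Esrrg* replicate 2 (from -0.16 to 0.070 when each library was left out). *CDKN1B* was lower at -0.44 with library size only and -0.36 with the covariate, each at an adjusted p below 0.05 in edgeR but below 1.5-fold. *CDKN2C* reversed to -0.060, -0.061 and -0.20 with that correction, with block and correction, and with the covariate, where *CCNE1* reversed to -0.20. In the list of pocket proteins and E2F factors, the number called higher was 1 with library size only, 7 without a fold limit and 3 to 5 when each library was left out, and the number called lower was 5 under library size only and 5 without a fold cutoff, 1 with RLE size factors, with GC and length correction with or without the block and in DESeq2, and 1 to 2 when each library was left out. Among ligase subunits, 1 was higher and 1 lower with library size only, 0 higher with the covariate (3 at an unadjusted p below 0.05 in edgeR, and 4 called in DESeq2), and 7 higher and 1 lower with no fold cutoff. Among the S phase list, the number higher was 0 with library size only (5 at an unadjusted p below 0.05 in edgeR, and 7 called in DESeq2), 1 with GC and length correction, 2 with block and correction, 0 with the covariate (3 unadjusted) and 10 with no fold cutoff, and 1 was lower with block and correction. Of the other G1 kinases and inhibitors, 2 were higher with the covariate. The cause was not tested. Shares of all tested genes without the fold limit are not given here. The share of reads outside genes was lower in every Ad CMV 3xFlag-*Esrrg* library than in every control, so the covariate and the virus cannot be told apart. Scaling by library size only moved the median of all genes from -0.10 to -0.42 and the share of higher among called genes from 50.7% to 22.5%, and that share was 63.0% in DESeq2. The groups share the replicate numbers 3 and 4 only, and deviations of same-numbered libraries correlated at 0.075 and -0.00010, so the numbers were not taken as pairs. With the replicate block 2 members were higher and 2 lower. In both block fits Ad CMV GFP replicate 1 and Ad CMV 3xFlag-*Esrrg* replicate 2 stood alone in their blocks, so the group difference came from replicates 3 and 4 only. Depth limits *CCND2* and *CDKN1C*, at 9 counts or fewer in each library.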

Other observations

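Other quantities were computed after seeing the data. Per kilobase of exon, *CDK4* and *CDK6* together stood at 67.5 ± 5.33 CPM in the controls and 77.5 ± 10.7 CPM with Ad CMV 3xFlag-*Esrrg* (SD, n = 3, p = 0.3 by the exact permutation test, two-sided), so that the sum of the kinases differed far less than either kinase. The ratio of *CCNE1* to *CCNE2*, which activate the same kinase, was 1.48, 1.93 and 2.06 in the controls and 2.49, 3.82 and 4.83 with Ad CMV 3xFlag-*Esrrg*. These means of 1.82 ± 0.307 and 3.71 ± 1.17 did not overlap in their libraries (p = 0.1 by the exact permutation test, two-sided, the smallest that 3 against 3 allow), although *CCNE1* alone was not called.

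Some genes of the adrenergic list moved apart. *DBH*, which makes noradrenaline, fell 6.25-fold, from 11.5 ± 0.405 to 1.84 ± 0.111 CPM (SD, n = 3, adjusted p = 1.28e-06 in edgeR). *GATA2* fell 2.11-fold, while *PHOX2A* rose 1.75-fold and *GATA3* and *ISL1* were not called. *HAND2* had a log2 fold change of -0.47 (adjusted p = 0.00656 in edgeR), below 1.5-fold, and was not called either. Of the 8 tested genes of the list, 1 was called higher and 3 lower, against 17.3% and 16.8% of all tested genes. The median log2 fold change of the list was -0.41, against -0.10 for all tested genes.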
